A study of Mus musculus with 4 samples.

Results

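The genes described here are 9 genes that mark resting, or homeostatic, microglia: P2ry12, Tmem119, Cx3cr1, Csf1r, Aif1, Trem2, Itgam, C1qa and Olfml3. They were chosen by name, and their probes were found through the transcript accession that the scanner files give for each probe. The 9 genes had 14 of the 41174 probes on the array and are 9 of the 16535 genes that could be given a symbol. RNA was taken from the brains of C57BL/6J mice, all male and 9 weeks old. Ischemic tissue was taken 6 h after the middle cerebral artery had been occluded permanently by a filament passed through the carotid artery, followed at once by 1 µl of saline into the ventricle. The healthy groups are labelled with the same time and the same saline. The groups were ischemic core, ischemic penumbra, healthy core and healthy penumbra, the core being the region where blood flow is lost most deeply and the penumbra its rim. Ischemic and matching healthy tissue were hybridised together on 4 two-colour arrays, 2 for the core (replicates 1 and 2) and 2 for the penumbra (replicates 3 and 4), all on 1 slide. Ischemic RNA was in Cy5 on replicates 1 and 3 and in Cy3 on replicates 2 and 4. The design text gives 3 mice for each group. It does not state whether their RNA was pooled, whether the arrays of a pair held separate extracts, or which hemisphere or which animals gave the healthy tissue. Each dye-swapped pair was therefore counted as 1 replicate, errors are SDs between the 2 arrays of a pair, and genes are called by size without a p-value.

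Microglia are the resident macrophages of the brain parenchyma. At rest they survey the tissue with fine processes that sense nucleotides, the neuronal chemokine fractalkine, lipids and complement, and their survival depends on signals through the receptor that Csf1r encodes. After injury microglia are known to retract their processes, and activated cells can lower homeostatic genes such as P2ry12 and Tmem119 while raising inflammatory ones. Several of the 9 genes are also expressed by other myeloid cells: Cx3cr1, Csf1r, Aif1, Trem2 and C1qa by macrophages at the brain borders or by blood-derived cells, and Itgam by neutrophils and monocytes.

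In both regions the median of the 9 genes lay close to the median feature of the arrays. Their median log2 ratio of ischemic over healthy tissue was 0.00 in the core, with a range from -0.44 (Tmem119) to 0.25 (Aif1). In the penumbra the median was 0.04 and the range ran from -0.18 (Tmem119) to 0.40 (Aif1). A gene was called where the mean of the pair was at least 2-fold and each array at least 1.5-fold in the same direction, and 0 of 9 genes were called in either region. Of all measured features, 0.31% were called in the core and 0.245% in the penumbra, so that a count of 0 among 9 genes is near the background. A smaller step, a mean of at least 0.5 log2 with at least 0.25 on each array, was also passed by 0 of 9 genes in both regions, against 1.86% of core features and 2.1% of penumbra features. The median of all features was -0.01 in both regions, and 98.1% of features in the core and 97.9% in the penumbra lay within 0.5 log2 of 0. Both arrays lay above 0 for 4 of 9 genes in the core (26.9% of features) and 3 of 9 in the penumbra (30.3%), and both lay below 0 for 1 of 9 in each region (28.0% and 32.4%). In bulk tissue a lower level can come from fewer cells of a type or from less RNA per cell, and these cannot be told apart. All values are relative to the bulk of features on the array. With scaling to 10 spike-in control transcripts instead, the median of all features moved to -0.49 in the core and -0.42 in the penumbra, all 9 genes lay below 0 (98.1% and 96.9% of features did), and the medians of the 9 genes were -0.48 and -0.37. The spike-in scaling shifts all features of a region alike. The distance of the 9 genes' median from the median of all features, 0.01 in the core and 0.05 in the penumbra, therefore could not change. With the spike-in scaling 3 genes in the core and 2 in the penumbra passed the smaller step downwards, as did 44.4% and 29.8% of features.

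**Figure D1:**
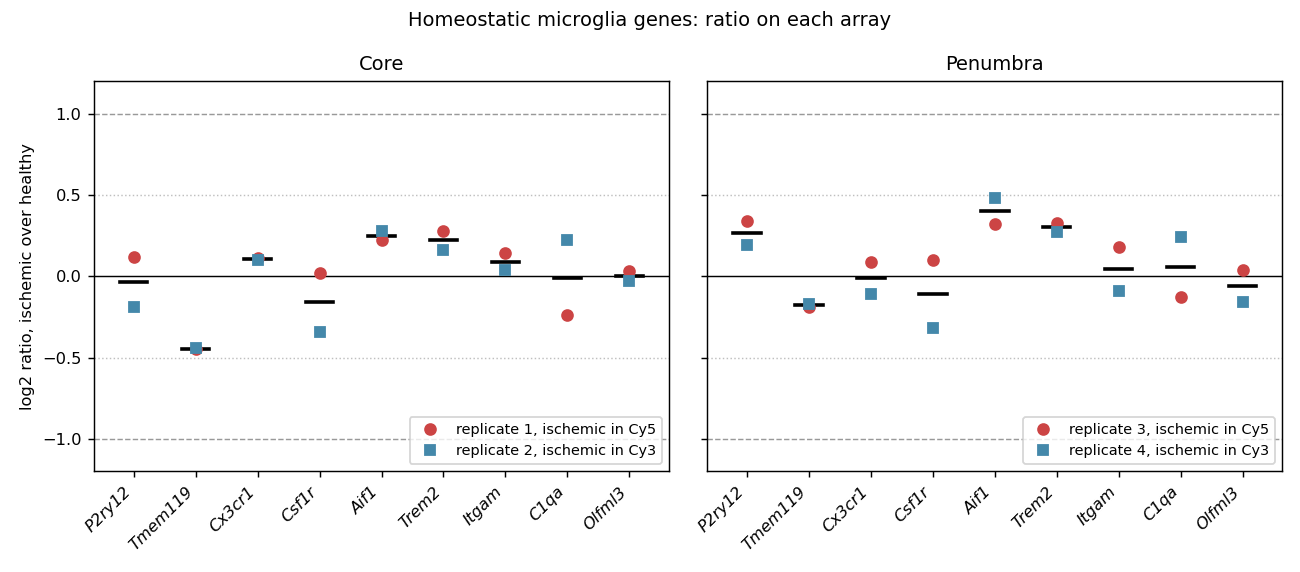
Log2 ratio of ischemic over healthy tissue (vertical axis) for the 9 genes on each array, core on the left and penumbra on the right, with circles for ischemic RNA in Cy5, squares for ischemic RNA in Cy3 and a black bar for the mean of the pair. Dotted lines stand at 0.5 log2 and dashed lines at 1 log2 in either direction. Tmem119 lies below 0 on all 4 arrays and Aif1 and Trem2 lie above 0 on all 4, the last pair only without the spike-in scaling; the arrays of Csf1r and C1qa lie on both sides of 0.

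Promoters of 6 of the 9 genes were read from the RefSeq promoter table (build GRCm38.p6): P2ry12, Cx3cr1, Aif1, Trem2, Itgam and Olfml3. Those of Tmem119, Csf1r and C1qa were not used here. PU.1, the product of Spi1, is the transcription factor on which myeloid cells, microglia among them, depend, and it binds sites built around the letters GAGGAA. These letters, on either strand, were searched in the 250 bases before each start site. They occurred in 3 of the 6 promoters (Aif1, Trem2 and Itgam) and in 23.3% of the 32851 promoters of the table. The sequences of Aif1 and Trem2 are shown because their ratios lay above 0 on all 4 arrays, and that of P2ry12 because its core arrays lay below its penumbra arrays and its window held no match. They are chr17:35176053-35176302 on the minus strand for Aif1, chr17:48346151-48346400 on the plus strand for Trem2 and chr3:59262986-59263235 on the minus strand for P2ry12, each written along the gene's strand with the searched letters, here in their opposite-strand form TTCCTC, in capitals.
Aif1: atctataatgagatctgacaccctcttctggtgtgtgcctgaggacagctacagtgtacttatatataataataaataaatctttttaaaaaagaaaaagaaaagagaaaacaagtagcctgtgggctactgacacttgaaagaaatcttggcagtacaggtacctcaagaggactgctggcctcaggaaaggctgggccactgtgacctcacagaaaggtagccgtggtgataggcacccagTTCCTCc
Trem2: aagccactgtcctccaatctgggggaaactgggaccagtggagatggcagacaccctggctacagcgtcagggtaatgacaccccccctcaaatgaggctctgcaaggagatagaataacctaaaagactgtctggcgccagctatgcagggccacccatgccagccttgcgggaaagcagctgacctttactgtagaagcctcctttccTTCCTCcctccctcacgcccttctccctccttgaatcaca
P2ry12: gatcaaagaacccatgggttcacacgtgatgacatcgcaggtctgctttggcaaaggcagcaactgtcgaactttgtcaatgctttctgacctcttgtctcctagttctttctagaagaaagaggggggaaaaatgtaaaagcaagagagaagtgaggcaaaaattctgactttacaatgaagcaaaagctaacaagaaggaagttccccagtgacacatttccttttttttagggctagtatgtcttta
The match began 7 bases before the start site in Aif1 and 40 bases before it in Trem2, while Itgam held matches beginning 84 and 15 bases before its start. The annotated Aif1 gene reaches to position 35176083, beyond the start site used, so its match lies inside the gene. The window of Trem2 ends where its annotated gene begins. A match is a description of the letters and not evidence of binding. Only these 6 letters were searched, so a window without a match is not evidence that binding is absent.

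P2ry12 encodes a purinergic receptor for ADP that guides microglial processes towards released nucleotides. Its log2 ratio was 0.12 on core replicate 1 and -0.19 on core replicate 2, so that the core arrays lay on both sides of 0 (mean -0.04 ± 0.21, SD, n = 2 arrays). It was 0.34 and 0.19 on penumbra replicates 3 and 4, both above 0, with a mean of 0.27 ± 0.11 (1.2-fold) that became -0.15 with the spike-in scaling. Its log2 level, which like all levels below rests on the scaling to the bulk of features, was 10.58 in Cy3 and 10.74 in Cy5 in healthy core, 10.56 and 10.70 in ischemic core, 10.71 and 10.77 in healthy penumbra, and 10.96 and 11.05 in ischemic penumbra. Ischemic penumbra was the highest tissue in both dyes, and the neighbouring steps of the order, down through healthy penumbra and healthy core to ischemic core, each had the same sign in both dyes, although healthy and ischemic core differed by less than their SDs.

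Cx3cr1 encodes the receptor for fractalkine, the chemokine that neurons display. Its ratios were 0.11 and 0.10 on the core arrays, which differed little (mean 0.11 ± 0.01). On the penumbra arrays they were 0.09 and -0.11, on both sides of 0 (mean -0.01 ± 0.14). The level was 10.10 in Cy3 and 10.17 in Cy5 in healthy core, 10.27 and 10.22 in ischemic core, 10.38 and 10.45 in healthy penumbra, and 10.34 and 10.47 in ischemic penumbra. The penumbra tissues lay above the core tissues in both dyes, and the order of the penumbra tissues differed between the dyes. A dimmer second probe of Cx3cr1 gave 0.15 ± 0.02 for core and 0.06 ± 0.02 for penumbra, and it did not share the gap between the regions: core over penumbra was -0.02 ± 0.06 in healthy and 0.06 ± 0.06 in ischemic tissue, against -0.28 ± 0.00 and -0.16 ± 0.13 for the brighter probe.

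Csf1r encodes the growth factor receptor for the products of Csf1 and Il34. Its ratio was 0.02 on core replicate 1 and -0.34 on core replicate 2, and 0.10 on penumbra replicate 3 and -0.32 on penumbra replicate 4. In each region the array with ischemic RNA in Cy5 lay just above 0 and the swapped array below 0, so that the means, -0.16 ± 0.25 in the core and -0.11 ± 0.30 in the penumbra, were smaller than their SDs. Its dimmer probes gave means of -0.14 ± 0.06 and 0.06 ± 0.03 in the core, and 0.03 ± 0.10 and -0.05 ± 0.04 in the penumbra, so that the probes did not share a direction. The level was 12.74 in Cy3 and 13.02 in Cy5 in healthy core, 12.68 and 12.75 in ischemic core, 12.75 and 13.03 in healthy penumbra, and 12.71 and 12.86 in ischemic penumbra. The healthy tissues were above the ischemic ones in both dyes, and the means over dyes differed by less than the SD between the dyes in healthy tissue.

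Trem2 encodes a receptor for lipids and apolipoproteins that signals through the adaptor Tyrobp. Its ratios were 0.28 and 0.16 in the core and 0.33 and 0.27 in the penumbra. All 4 arrays lay above 0, with means of 0.22 ± 0.08 (1.16-fold) in the core and 0.30 ± 0.04 (1.23-fold) in the penumbra, and with the spike-in scaling these means became -0.26 and -0.11. A dimmer second probe of Trem2 gave 0.19 ± 0.02 and 0.15 ± 0.13. The level was 11.89 in Cy3 and 12.15 in Cy5 in healthy core, 12.31 and 12.17 in ischemic core, 11.99 and 12.20 in healthy penumbra, and 12.47 and 12.31 in ischemic penumbra. Ischemic tissue was above healthy tissue of the same region in both dyes, and ischemic core and healthy penumbra changed places between the dyes.

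Aif1 encodes the calcium-binding protein Iba1, an actin-bundling protein used as a histological marker of microglia and macrophages. Its ratios were 0.22 and 0.28 in the core and 0.32 and 0.48 in the penumbra. They were the highest means among the 9 genes in both regions, 0.25 ± 0.04 (1.19-fold) and 0.40 ± 0.12 (1.32-fold), lying at percentiles 92.9 and 96.6 of all features, and with the spike-in scaling they became -0.23 and -0.01. A dimmer second probe gave means of 0.28 ± 0.35 and 0.29 ± 0.32, with 0.04 and 0.06 where ischemic RNA was in Cy5 and 0.53 and 0.51 where it was in Cy3. The level was 10.86 in Cy3 and 10.85 in Cy5 in healthy core, 11.13 and 11.08 in ischemic core, and 11.55 and 11.32 in ischemic penumbra, with a mean over the dyes of 11.04 ± 0.05 in healthy penumbra. This order, with ischemic penumbra highest and healthy core lowest, held in both dyes at every step, and its span of 0.58 log2 was the widest of the 9 genes.

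Tmem119 encodes a transmembrane protein of unsettled function that separates microglia from most blood-derived macrophages. Its ratios were -0.45 and -0.44 in the core and -0.19 and -0.17 in the penumbra. All 4 arrays lay below 0 and the arrays of each region nearly coincided, with means of -0.44 ± 0.01 (0.736-fold) and -0.18 ± 0.01 (0.883-fold). The core mean lay at percentile 0.261 of all features and the penumbra mean at percentile 12.6, and neither passed the smaller step of 0.5 log2. The level was 11.15 in Cy3 and 11.13 in Cy5 in healthy core, 10.69 and 10.70 in ischemic core, 11.25 and 11.12 in healthy penumbra, and 10.95 and 11.06 in ischemic penumbra. Ischemic core was the lowest tissue in both dyes, and the healthy tissues changed places between the dyes. With the spike-in scaling the means were -0.92 and -0.60.

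Olfml3 encodes a secreted olfactomedin-like protein found in microglia. Its ratios were 0.03 and -0.03 in the core and 0.04 and -0.16 in the penumbra, on both sides of 0 in each region. The means were 0.00 ± 0.04 and -0.06 ± 0.14. Its span over the 4 tissues, 0.10 log2, was the narrowest of the 9 genes, and no neighbouring tissues kept their order in both dyes. The level was 10.59 in Cy3 and 10.71 in Cy5 in healthy core, 10.68 and 10.63 in ischemic core, 10.80 and 10.70 in healthy penumbra, and 10.54 and 10.84 in ischemic penumbra.

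Itgam and C1qa belong to complement: Itgam encodes the alpha chain of complement receptor 3 (CD11b), and C1qa a chain of C1q, the protein that starts the classical pathway. Itgam had ratios of 0.14 and 0.04 in the core and 0.18 and -0.09 in the penumbra, with means of 0.09 ± 0.07 and 0.04 ± 0.19. Its spots were dim (146 to 166 in Cy3 and 200 to 222 in Cy5, with local backgrounds whose medians were 64 to 66 and 70 to 71), and the signals processed by Agilent's software, to which no offset was added, put the mean at 0.09 in both regions. Its level was 7.40 in Cy3 and 7.39 in Cy5 in healthy core, 7.43 and 7.53 in ischemic core, 7.44 and 7.56 in healthy penumbra, and 7.47 and 7.61 in ischemic penumbra, an order kept in both dyes over a span of 0.14 log2. C1qa had ratios of -0.24 and 0.22 in the core and -0.13 and 0.24 in the penumbra. Its arrays lay on both sides of 0 in each region, below where ischemic RNA was in Cy5 and above where it was in Cy3, with means of -0.01 ± 0.32 and 0.05 ± 0.26. The level of C1qa was 12.09 in Cy3 and 11.88 in Cy5 in healthy core, 12.10 and 11.86 in ischemic core, 12.19 and 12.01 in healthy penumbra, and 12.25 and 12.06 in ischemic penumbra. Both penumbra tissues were above both core tissues in each dye, by about the SD between the dyes. C1qb, the next chain of the same protein, had the same pattern by dye, with -0.32 and 0.20 on the core arrays and -0.17 and 0.21 on the penumbra arrays, and C1qc had means of -0.05 ± 0.12 and -0.06 ± 0.21.

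**Figure D2:**
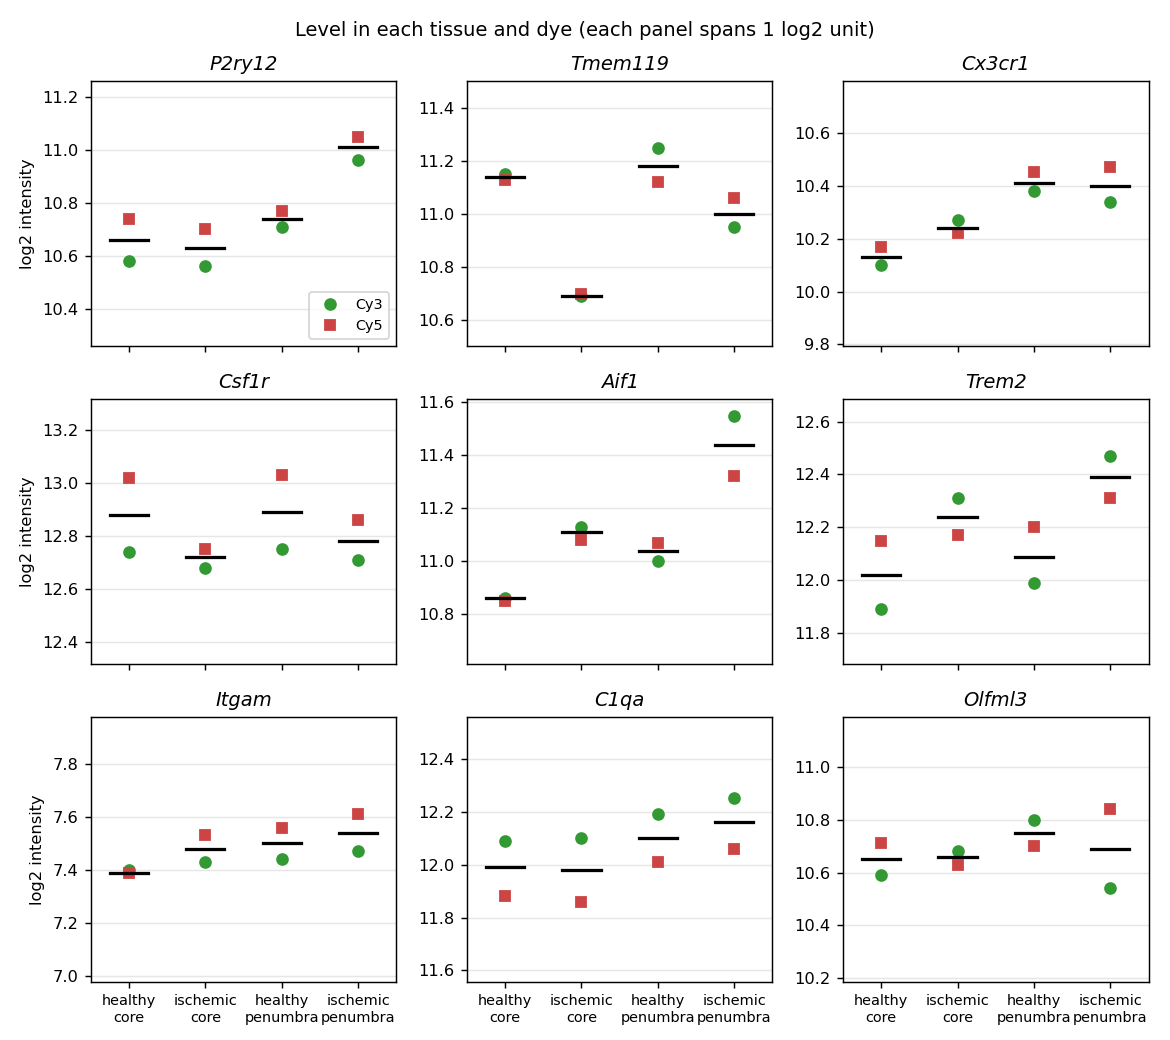
Log2 intensity (vertical axis) of each of the 9 genes in healthy core, ischemic core, healthy penumbra and ischemic penumbra, with circles for Cy3, squares for Cy5 and a bar for their mean; each panel spans 1 log2 unit, and levels of different genes are not comparable. Aif1 has its highest point in ischemic penumbra (-0.01 against healthy penumbra with the spike-in scaling), Tmem119 has its lowest point in ischemic core, and Olfml3 spans only 0.10 log2.

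The next comparison asked whether the response to ischemia differed between the regions. The core ratio minus the penumbra ratio was -0.30 for P2ry12, -0.26 for Tmem119, -0.15 for Aif1, -0.08 for Trem2, -0.06 for Csf1r and for C1qa, 0.04 for Itgam, 0.06 for Olfml3 and 0.12 for Cx3cr1. Both core arrays lay below both penumbra arrays for P2ry12, Tmem119 and Aif1, and above them for Cx3cr1. These were 3 of 9 genes lower in the core (14.8% of features) and 1 higher (15.7%), or 4 of 9 in either direction (30.4%). For Aif1 this rests on the brighter probe. Its dimmer probe had 0.04 and 0.53 in the core and 0.06 and 0.51 in the penumbra, which overlap. The dimmer probe of Cx3cr1 had 0.14 and 0.17 in the core and 0.05 and 0.08 in the penumbra, which do not overlap. None of the 9 differences reached 1 log2 (0.0594% of features were called) or 0.5 log2 (0.788% of features passed). Over the settings that kept 4 arrays, spike-in scaling included, the difference ran from -0.37 to -0.20 for P2ry12, from -0.32 to -0.15 for Tmem119, from -0.22 to -0.04 for Aif1 and from 0.05 to 0.22 for Cx3cr1. With 1 array left out it ran from -0.45 to -0.15 for P2ry12, from -0.27 to -0.25 for Tmem119, from -0.24 to -0.07 for Aif1 and from 0.02 to 0.22 for Cx3cr1.

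Tissue of the same state was then compared between the regions, within each dye, on single-channel values. Healthy core was below healthy penumbra in the mean for all 9 genes (46.3% of features), with a median of -0.10 and a range from -0.28 ± 0.00 (Cx3cr1) to -0.01 ± 0.01 (Csf1r). For 7 of 9 genes this held in both dyes, against 32.1% of all features. These values are those of the brightest probes. The dimmer probe of Cx3cr1 gave -0.02 ± 0.06 in healthy tissue and 0.06 ± 0.06 in ischemic tissue. By the 2-fold rule 0 of 9 genes were called (1.13% of features), and 0 of 9 passed the smaller step (5.91%). Ischemic core was below ischemic penumbra in the mean for all 9 genes (45.9% of features), with a median of -0.16, and for 8 of 9 in both dyes (32.3%). Again 0 of 9 genes were called (1.35% of features) and 0 passed the smaller step (7.36%). The lowest were P2ry12 at -0.38 ± 0.04, Aif1 at -0.33 ± 0.13, Tmem119 at -0.31 ± 0.07 and C1qa at -0.18 ± 0.04. These comparisons use the same channels as the ratios above. The spike-in scaling shifts all features alike. With it 7 of 9 genes in healthy tissue and 5 of 9 in ischemic tissue lay above 0 (82.6% and 80.6% of features), while the median of all features moved from 0.01 to 0.18 and from 0.02 to 0.19. Under both scalings 0 of 9 genes lay above the median feature, and the median of the 9 genes was at -0.11 from it in healthy tissue and at -0.18 in ischemic tissue.

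**Figure D3:**
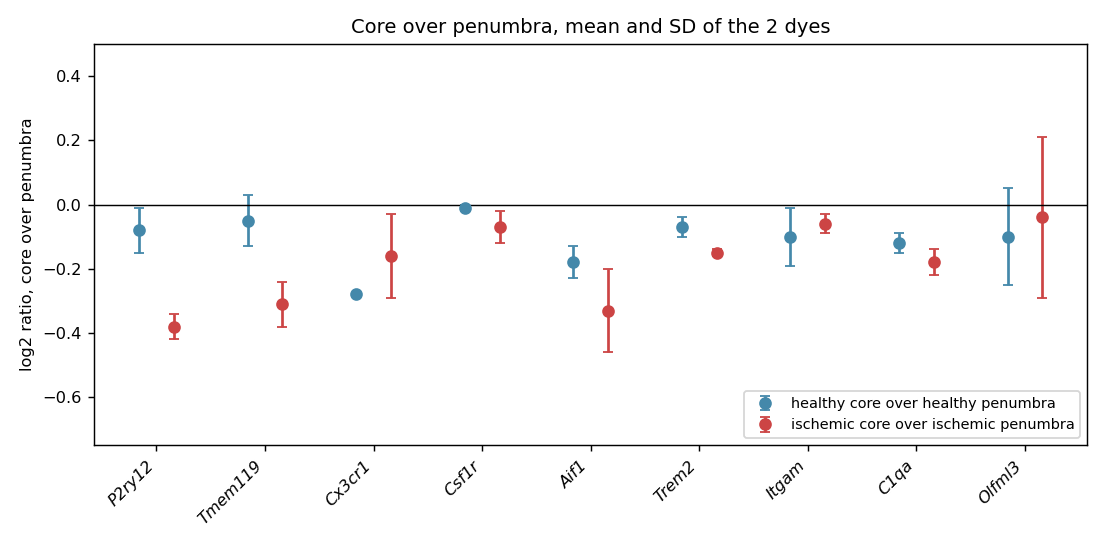
Log2 ratio of core over penumbra (vertical axis) for the 9 genes, in healthy tissue (blue) and ischemic tissue (red), as the mean and SD of the 2 dyes. All means, from the brightest probe of each gene, lie below 0, down to -0.38 for P2ry12 in ischemic tissue. The dimmer probe of Cx3cr1, not drawn, gave 0.06 ± 0.06 in ischemic tissue. With the spike-in scaling 7 of 9 in healthy and 5 of 9 in ischemic tissue lie above 0, and none above the median feature.

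The pieces labelled core and penumbra also differed in genes of other cell types and brain structures. In healthy core over healthy penumbra the median was -3.34 for 8 choroid plexus genes, -1.88 for 8 striatal genes, -0.77 for 7 oligodendrocyte genes, 0.44 for 6 cortical genes, 0.76 for 8 meningeal genes and 0.48 for 9 measured genes of border macrophages. In the comparison of ischemic with healthy tissue the choroid plexus genes had medians of 0.01 (core) and 0.67 (penumbra), and the meningeal genes of -0.19 and 0.38. The medians were -0.08 and -0.10 for 9 neuronal genes, -0.07 and 0.08 for 8 astrocyte genes, 0.16 and 0.12 for the oligodendrocyte genes, 0.06 and 0.11 for 7 endothelial genes, 0.18 and -0.13 for the striatal genes, 0.21 and -0.08 for the cortical genes, and 0.04 and -0.01 for lymphocyte genes (7 measured in the core and 6 in the penumbra), with 0 called in these lists. The part of these differences in the values of the 9 microglia genes was not tested.

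A model fit over the 4 arrays, with limma and a coefficient for the dye, was run as an alternative. The dye coefficient takes up the gap between the arrays of a pair where both pairs share it. The p-values of the fit measure only how far the pairs disagree in that gap, drawn towards the spread of all features, which may be technical. They do not measure the SDs between arrays given above: Csf1r was called in the core although its mean, -0.16, was smaller than its SD of 0.25. In the core it called 28.1% of all features and 4 of 9 genes, with limma adjusted p = 2.8e-05 for Tmem119, 0.0022 for Aif1, 0.0046 for Trem2 and 0.022 for Csf1r. In the penumbra it called 42.1% of features and again 4 of 9 genes, with limma adjusted p = 5.2e-05 for Aif1, 0.00037 for Trem2, 0.0011 for P2ry12 and 0.008 for Tmem119. For the difference between the regions it called 7.09% of features and 2 genes, P2ry12 (limma adjusted p = 0.022) and Tmem119 (limma adjusted p = 0.033). The changes it called among the 9 genes were at most 0.44 log2 in size.

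Other genes of microglial identity and of the same pathways were read from further lists. Of 29 other microglial identity genes 0 were called, with medians of 0.11 in the core and 0.04 in the penumbra. Ly86, the partner of a Toll-like receptor homologue, passed the smaller step at 0.65 ± 0.09 in the core and 0.69 ± 0.02 in the penumbra. Spi1 stood at 0.18 ± 0.19 for core and -0.03 ± 0.11 for penumbra. At the low end stood Selplg, a selectin ligand, at -0.43 ± 0.14 and -0.24 ± 0.11, and the phagocytic receptor Mertk at -0.37 ± 0.02 and -0.30 ± 0.03, both named after their values were seen. The spike-in scaling lowers the list values of ischemic over healthy tissue below, and these, by the shift of all features given above, while it raises those of core over penumbra.

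Among 20 ligands, adaptors and complement partners of the 9 genes 0 were called, with medians of -0.03 in the core and 0.00 in the penumbra. Tyrobp, the signalling adaptor of Trem2, had 0.24 ± 0.03 and 0.28 ± 0.11. The ligand of Cx3cr1, Cx3cl1, had 0.06 ± 0.48 and -0.16 ± 0.33. Of the ligands of Csf1r, Csf1 had 0.20 ± 0.09 and 0.03 ± 0.10 and Il34 had -0.08 ± 0.29 and -0.22 ± 0.24. Itgb2, the beta chain that pairs with the product of Itgam, had 0.14 ± 0.23 and 0.09 ± 0.25. C1ra, a protease of the C1 complex, was the 1 partner past the smaller step, at -0.65 ± 0.18 in the penumbra (-0.13 ± 0.26 in the core). Of 14 genes of the disease-associated microglial state that were on the array 0 were called, with medians of 0.12 and 0.24. Ccl6, a chemokine, had 0.99 ± 0.01 and 0.75 ± 0.01, Lgals3, a galectin, 0.66 ± 0.10 and 0.36 ± 0.05, and Lpl, lipoprotein lipase, -0.12 ± 0.31 and -0.56 ± 0.22.

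Early activation genes of myeloid cells had larger ratios. Of 11 measured 7 were called higher in the core and 2 in the penumbra, with medians of 1.12 and 0.18. The chemokine Ccl4 had 3.59 ± 0.02 on the core arrays and 1.49 ± 0.10 on the penumbra arrays, and Ccl3, a related chemokine, 2.84 ± 0.01 and 1.42 ± 0.09. Gpr84, a fatty acid receptor of activated microglia, was at 1.12 ± 0.13 and -0.54 ± 0.08. In healthy core over healthy penumbra these 11 genes had a median of -0.54, with Ccl4 at -1.79 ± 0.04. In ischemic core over ischemic penumbra the median was 0.28. Gpr84 had -1.56 ± 0.11 between the healthy tissues, while the widest such gap among the 9 homeostatic genes was -0.28. That gap came from the brighter probe of Cx3cr1, and its dimmer probe gave -0.02.

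Markers of blood-derived cells were read because Itgam, Aif1 and other genes of the 9 are not limited to microglia. Of 10 measured neutrophil genes 3 were called in each region, with medians of 0.45 and 0.23 and S100a9 at 2.49 ± 0.06 and 1.88 ± 0.23, S100a8 at 2.39 ± 0.00 and 1.82 ± 0.01 and Retnlg at 2.11 ± 0.06 and 1.5 ± 0.16. Monocyte genes had medians of 0.34 over 6 measured in the core and 0.37 over 5 in the penumbra, with 0 called and Plac8 highest at 0.97 ± 0.11 and 0.55 ± 0.21. Border macrophage genes had medians of -0.08 and 0.11 over 10 genes. The highest was Pf4, a platelet and macrophage chemokine, at 0.54 ± 0.28 and 0.54 ± 0.10. In the core Pf4 alone had a mean above 0 and the other 9 lay below 0. In the penumbra 9 of 10 means lay above 0. The part of these cells in the ratios of Aif1, Trem2 and Itgam was not tested.

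**Figure D4:**
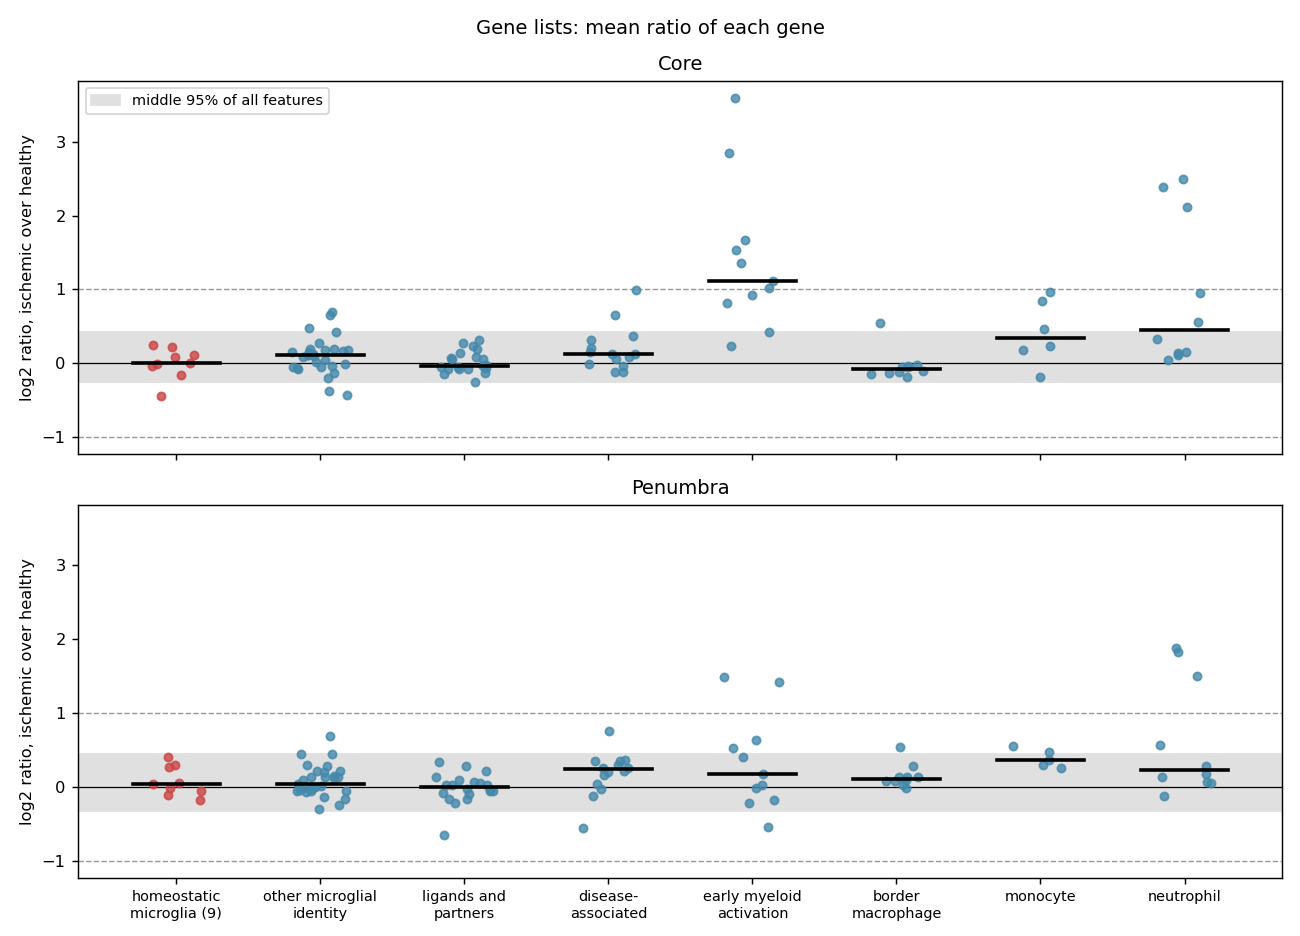
Mean log2 ratio of ischemic over healthy tissue (vertical axis) for each gene of 8 lists, core above and penumbra below, with a bar at each list's median, dashed lines at 1 log2 and a grey band for the middle 95% of all features. The 9 homeostatic genes (red) lie within -0.44 to 0.25 in the core and -0.18 to 0.40 in the penumbra, while early activation genes reach 3.59 and 1.49; with the spike-in scaling all 9 homeostatic genes lie below 0.

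The genes whose pattern over the 4 tissues was most like that of the 9 genes were found from the root mean square difference to their median profile, over 8 single-channel values (4 tissues in 2 dyes) centred within each dye. Among 13348 named genes the nearest were Il25 (0.022 log2), Samd12 (0.0229), Sox13 (0.0243), Aifm1 (0.025) and Mgat4c (0.025). The median profile itself was flat, at -0.068 in healthy core, -0.05 in ischemic core, 0.033 in healthy penumbra and 0.088 in ischemic penumbra. C1qa lay nearest to it among the 9 genes (0.0231) and Tmem119 farthest (0.19), with 0.144 as the median distance of all named genes. The 5 nearest genes were in none of the lists used here.

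The share of spots well above background ran from 76.07% to 79.41% over the arrays and dyes, and 0 spots were saturated. All 14 probes of the 9 genes were well above background in 112 of 112 probe and channel combinations, so no gene was lost to the filter on dim probes. The median SD between the arrays of a pair was 0.10 log2 over all features, and among the 9 genes it was 0.07 for the core pair and 0.14 for the penumbra pair. The number of arrays limits the precision.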

How the data were processed

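Spot intensity for each dye stood in the authors' deposited scanner output of Agilent Feature Extraction 11.0.1.1, per the submitters' processing notes. Values in the deposited series table were log10 ratios, equal to log10 of Agilent's processed Cy5 over Cy3 signal to within 5e-06. Its column medians were -0.0215 and 0.00516 for the core and -0.0199 and -0.0115 for the penumbra. By accession, 23374 of 41174 probes were named through a RefSeq table (GRCm38.p6).

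Median spot signals (the planned mean signals are not used here) were corrected with normexp (offset 50) and normalized by loess in limma 3.58.1 (R 4.3.3), with control and outlier spots at weight 0. Levels came from Aquantile scaling across channels. A feature entered if both arrays had it well above background in at least 1 compared tissue, and the brightest probe stood for a gene. The 9 genes and 16 other lists (181 of 186 entries on the array) were chosen with earlier results of these data known. From other lists the rule named called genes by size, else genes past the smaller step, else the brightest, and partners given beside a member were named after their values were seen. A result that the rule named is not reported here. The limma fit and call rule were tested on simulated data. Alternatives were processed signals, median centring, no dim filter, the mean over probes, spike-in scaling, leaving out each array and limma. Python 3.11.15, pandas 2.3.3, numpy 2.4.6 and matplotlib 3.10.9 were used.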

Additional observations from a re-analysis of the deposited data

Results flagged for a closer look

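The genes given first are those the naming rule took from the lists whose core ratio minus penumbra ratio differed from 0 by limma's test of the difference. Its p-values measure only how far the dye-swapped pairs disagree in the gap between their arrays, drawn towards the spread of all features. Among the 9 genes the difference was -0.30 log2 for P2ry12 (limma adjusted p = 0.022) and -0.26 for Tmem119 (limma adjusted p = 0.033). Among partners and disease-associated genes it was 0.51 for C1ra (limma adjusted p = 0.00097), 0.30 for Lgals3 (limma adjusted p = 0.02) and 0.44 for Lpl (limma adjusted p = 0.0024). Among early activation genes it was 2.10 for Ccl4 (limma adjusted p = 2.5e-08), 1.42 for Ccl3 (3.4e-07), 1.69 for the chemokine Ccl2 (7.1e-08), 1.12 for Cd14, a lipopolysaccharide receptor (2.4e-06), and 1.67 for Gpr84 (3.4e-07). Among neutrophil genes it was 0.61 for S100a9 (limma adjusted p = 0.00061), 0.57 for S100a8 (0.00036) and 0.61 for Retnlg (0.00033). Among monocyte genes it was 0.42 for Plac8 (limma adjusted p = 0.0033), 0.55 for Chil3, a chitinase-like protein (0.0012), and -0.55 for Itga4, an integrin chain (0.00052). Gpr84 lay above 0 on both core arrays and below 0 on both penumbra arrays, and Itga4 the other way round.

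The 7 lists of other microglial, partner, disease-associated, early activation, border macrophage, monocyte and neutrophil genes had 100 genes in the fit. By the same test 22 had a higher and 5 a lower core ratio, against 871 and 920 of all 25246 features. The lists were chosen with earlier results of these data known, so these counts are not a test of the lists. Of the 22, 10 were early activation genes and 5 were neutrophil genes. For 11 of the 100 the core arrays and the penumbra arrays lay on opposite sides of 0. No share of all features was counted for this. Chosen after their values were seen, 3 further genes that the rule did not take for these ratios and that were lower were C4b, a complement protein, at -0.48 (limma adjusted p = 0.0012), Folr2, a folate receptor of border macrophages, at -0.41 (0.0036) and Spp1, osteopontin, at -0.32 (0.012).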

How the results depend on the processing

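Calls by the 2-fold rule stayed at 0 of 9 genes in all comparisons under processed signals, median centring, no dim filter, the mean over probes, spike-in scaling and each array left out. Spike-in scaling moved the medians of the 9 genes to -0.48 in the core, -0.37 in the penumbra, 0.06 in healthy and 0.01 in ischemic core over penumbra, and put 3 and 2 genes past the smaller step; this scaling shifts all features alike. Median centring gave -0.11 for ischemic core over penumbra and turned the penumbra median from 0.04 to -0.05. Leaving out 1 array gave medians of 0.04 to 0.11 in the core and -0.09 (without replicate 3) to 0.10 (without replicate 4) in the penumbra. In core over penumbra an array left out removed its dye from both regions, so only the value of a single dye remained. The medians of the single dyes were -0.10 and -0.04 in healthy and -0.21 and -0.15 in ischemic core over penumbra. The limma fit called 4, 4 and 2 genes in the core, the penumbra and their difference. Over all features, the 2-fold rule called 76 in the core, 61 in the penumbra, 15 for the difference, 282 for healthy and 337 for ischemic core over penumbra. Processed signals gave 245, 219, 179, 852 and 1037. The limma fit, with no minimum size, gave 7088, 10625 and 1791 for the first 3 (10071, 12630 and 5765 at an unadjusted p under 0.05). Leaving out 1 array gave 24 to 35 for the difference. Single dyes gave 378 and 461 for healthy and 413 and 543 for ischemic core over penumbra. Spike-in scaling split the core calls into 31 higher and 30 lower and the penumbra calls into 31 and 23, against 76 and 0 and 60 and 1. The cause of these other changes was not tested. Core replicates are numbered 1 and 2 and penumbra replicates 3 and 4, which does not say whether the regions came from the same animals. No analysis that pairs the regions by animal was therefore made.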
